A study of Rattus norvegicus with 2 samples.

Results

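Circular RNA (circRNA) of 34 host genes of innate immune and MAPK signalling was examined in lung tissue of Sham rats and of rats with LPS-induced acute lung injury. The host genes were chosen by name, as those whose symbols begin with the family names of Toll-like and NOD-like receptors, interleukins, interferons, colony-stimulating factors and tumour necrosis factor receptors with their receptors and adaptors, of the IRAK, TRAF, TAB, TBK1, RIPK, NF-kB, IKK, TNFAIP, JAK, STAT and IRF proteins, and of the MAP4K, MAP3K, MAP2K and MAPK kinases. They are 34 of the 2502 host gene names in the deposited table, and they carried 61 of its 4734 back-splice junctions. All 34 matched a symbol of the RefSeq gene table for GRCr8, each on the chromosome given for its junctions. SD rats received PBS (Sham) or LPS at 2 mg/kg (LPS) by intratracheal spray, and whole lung tissue was taken after 24 h. The labels name no genotype or age, and 12 rats were used in all. Each group is 1 library, and how many rats it holds is not stated, so no difference below has a replicate check and no p-value is given.

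A circRNA forms when the end of an exon is spliced back to the start of the same or an earlier exon, and the reads across that back-splice junction are specific to the circle. LPS of the bacterial wall is sensed by TLR4, whose adaptor MyD88 recruits the IRAK kinases. TRAF ubiquitin ligases and the TAK1-TAB complex then pass the signal to the IKK complex, which frees NF-kB, and to the MAPK cascades, in which MAP4K, MAP3K, MAP2K and MAPK enzymes phosphorylate each other in that order. In the injured lung these pathways run in alveolar macrophages, in the endothelium and epithelium, and in the neutrophils that enter the airspace.

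The deposited values, headed TPM, are junction reads scaled to the same total in each library (CPM) without a length term. From the value of 1 read, 26.2 CPM in Sham and 19.0 CPM in LPS, the depths were 38112 and 52505 junction reads. A junction with fewer than 2 reads in a library is listed at a fill-in of 0.001 CPM. Counted as a possible hidden read, a fill-in allows up to 4.74 reads (one-sided 95% Poisson limit), which is 124.5 CPM in Sham and 90.4 CPM in LPS. A fold against this limit divides the listed value by it and leaves out the counting error of that value. Values of a host gene are the sums of its junctions. Fold changes compare the LPS with the Sham library, and log2 fold changes were computed with 0.5 reads added to each sum. The intervals are 95% Wilson intervals for a CPM value and exact 95% intervals for a ratio, and they cover counting error only. Ratios and intervals are on the scale of the library totals unless another is named, and they shift with the scale. The median log2 ratio was -0.46 over the 1757 circRNAs with reads in both libraries and 0.44 over the 323 of them with at least 50 reads. As markers of lung, Rtkn2 of alveolar epithelium was listed with 53 Sham and 112 LPS reads and Flt1 of endothelium with 67 and 165. The other endothelial markers with at least 10 reads were lower in LPS, Tek with 18 and 2 reads (12.4-fold, 2.97–110) and Calcrl with 14 and 4 (4.82-fold, 1.51–20.1). Of the fibroblast and smooth muscle markers, Col3a1, a fibrillar collagen, had 70 Sham and 2 LPS reads and was 48.2-fold lower (12.9–406), and Pdgfra had 2 reads in LPS alone. The surfactant gene Sftpc had 5 and 0 reads, and Ager, Scgb1a1, Pecam1 and Cdh5 had no junction in the table. Of 12 leukocyte markers 3 were hosts, with 2 reads together in Sham and 32 in LPS. Of these LPS reads 25 were of Csf3r, itself 1 of the 34 genes. The other 2 markers had 2 and 7 reads (ratio 2.54, 0.48–25.1), not beyond counting error. The part of these marker shifts in the values of the 34 genes was not tested. In bulk lung, fewer cells of a type and less RNA per cell cannot be told apart.

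The families differed in how many of their genes had a listed circRNA, and the Toll-like receptors had none. No junction was listed for any of the 13 rat genes with Tlr symbols, Tlr4 included, for the 3 Tab genes, or for the Tnfaip (8), Tnfrsf (19) and Ifn (21) symbols. Of 81 genes with Il symbols 3 were hosts, and of 5 Irak genes only Irak3. In contrast, all 5 Map4k genes were hosts, as were 3 of 7 Map2k, 3 of 7 Traf and 3 of 7 Stat genes. Over the whole name pattern 34 of 278 protein-coding symbols, or 12.2%, were hosts, against 10.5% of the 23148 protein-coding symbols of the rat. Several of the families hold few genes, and their differences from this share were not tested. A gene without a listed junction may still form circRNA below 2 reads per library, and 395 junctions of the table carry no gene name.

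The circRNA of the immune genes was higher in the LPS library, whereas the direction for the MAPK cascade as a whole depended on the scale. The roles were set with earlier results of these data known, so the division itself lends this contrast no support. The 19 receptors, adaptors, kinases and transcription factors of the immune roles had 51 Sham and 222 LPS reads, that is 1338 CPM (1018–1759) and 4228 CPM (3708–4821), a ratio of 3.16 (2.32–4.37). The ratio was 4.35 (3.20–6.02) on the scale of shared circRNAs and 2.32 (1.71–3.21) on that of circRNAs with at least 50 reads. Of the 19 genes, 10 had reads in both libraries, 7 in LPS alone and 2 in Sham alone. Over all 2502 host genes these counts were 1307, 590 and 605. The sums take each fill-in as 0 reads, so genes listed in LPS alone add to the LPS sum only. With each fill-in as 1 read the log2 ratio of all 34 genes went from 0.49 to 0.42, and that of the 19 was not computed. Leaving out any 1 of the 19 genes gave ratios between 2.76 without Ripk2 and 3.45 without Irak3. The 5 genes with the most LPS reads, Tbk1, Ripk2, Irak3, Csf3r and Traf4, held 60.4% of the LPS reads of the 19, and the other 14 together had 34 Sham and 88 LPS reads (ratio 1.88). The 15 genes of the MAPK cascade with its scaffolds and substrates had 192 and 249 reads, 5038 CPM (4375–5800) in Sham and 4742 CPM (4190–5367) in LPS, a ratio of 0.94 (0.78–1.14). On the same alternative scales it was 1.30 (1.07–1.57) and 0.69 (0.57–0.84), so it lay above, at or below 1 with the choice of scale. Without Map4k1 the ratio on the library totals was 0.98 (0.77–1.25). Mapkap1, which is not a MAPK enzyme, held 25 of the 192 Sham reads and 69 of the 249 LPS reads. The ratio without Mapkap1 was not computed. All 34 genes together had 243 and 471 reads, with a ratio of 1.41 (1.20–1.65), which was 1.94 (1.66–2.27) on the scale of shared circRNAs and 1.03 (0.88–1.21), not beyond counting error, on the other.

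**Figure D1:**
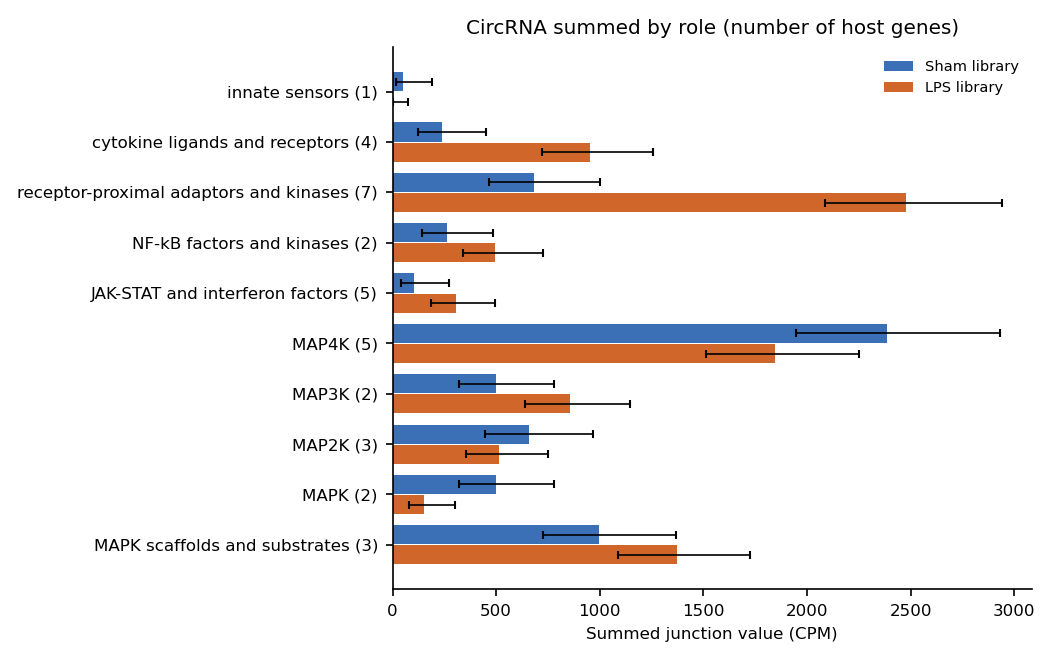
Junction values summed over the host genes of each role (horizontal axis, CPM from 0), with the Sham library in blue, the LPS library in orange and bars for the 95% Wilson interval of counting error; the number of host genes stands in parentheses. The receptor-proximal adaptors and kinases were at 682 CPM in Sham and 2476 in LPS, and the intervals of the MAP4K, MAP3K, MAP2K, NF-kB and JAK-STAT roles overlap.

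By gene, 9 of the 34 host genes were at least 2-fold higher in LPS, 10 at least 2-fold lower and 15 in between. Over all 2502 host genes 31.1% were higher and 38.0% lower by the same rule, so neither count stands far from the table as a whole. The roles differed in how the genes divided. Of the 19 immune genes 8 were higher and 2 lower, while of the 15 MAPK genes 1 was higher and 8 lower. Of the 8 higher immune genes, Jak2, Stat5a and Stat5b had LPS values within what a Sham fill-in allows. Il1r1 was not beyond counting error with its fill-in taken as 1 read. On the scale of the shared circRNAs these counts were 14 and 2 for the immune genes and 3 and 6 for the MAPK genes, and on that of circRNAs with at least 50 reads 8 and 2, and 0 and 8. Of all 2502 host genes, 906 were higher and 810 lower on the first of these scales, and 707 and 1121 on the second. Among genes with at least 10 reads over both libraries, 4 of 11 immune genes were higher and none lower, and none of 9 MAPK genes was higher and 5 were lower, beside 25.0% higher and 26.6% lower of the 1206 host genes of the table with that many reads. Csf3r, Ripk2 and Traf4 passed this minimum through LPS reads alone. Map2k5, Mapk12 and Mapkapk5 had at least 10 reads in Sham and fewer in LPS. The counts under this minimum are therefore no separate support for the division by role. The median log2 fold change was 0.93 for the immune genes, -1.20 for the MAPK genes and -0.32 for all host genes. The split between immune and MAPK roles was not tested, since 2 libraries allow no test.

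**Figure D2:**
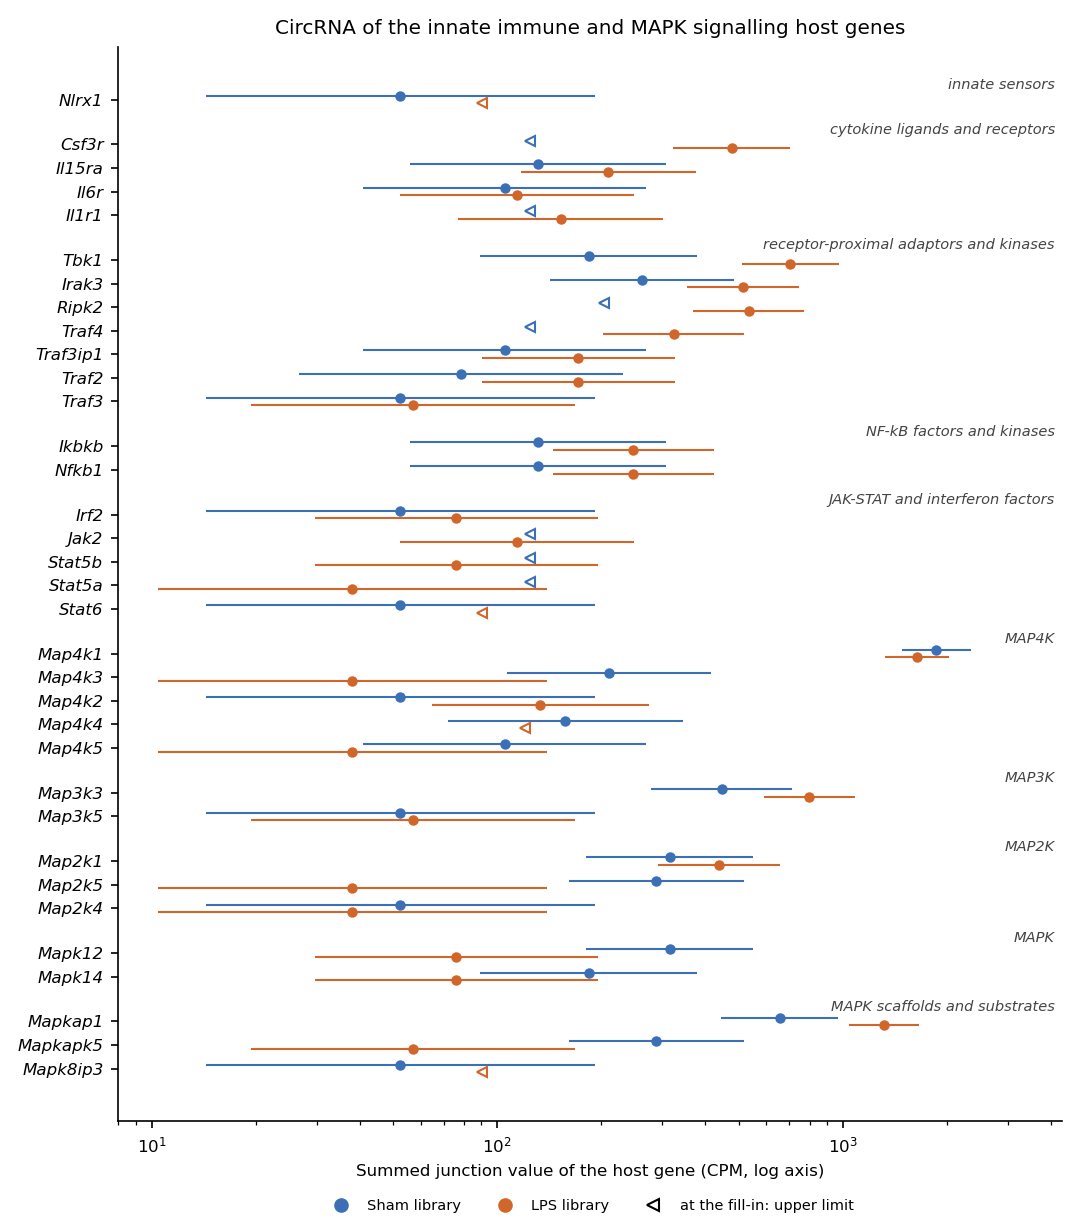
Summed junction value of each of the 34 host genes (horizontal log axis, CPM), Sham in blue and LPS in orange, with 95% Wilson intervals of counting error; open triangles mark the upper limit for a gene at the fill-in in that library. The intervals of Tbk1, Mapkap1 and Map2k5 do not overlap, and those of Csf3r, Ripk2 and Traf4 lie above the Sham limit.

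Among the sensors and cytokine receptors, the receptor of granulocyte colony-stimulating factor had the most LPS reads. Csf3r, which drives the output and survival of neutrophils, had 1 junction (chromosome 5, 144038462 to 144038971 in the rn6 coordinates of the table), which was at the fill-in in Sham and had 25 reads in LPS, 476 CPM (323–703). This was at least 3.83-fold higher than the Sham limit. Csf3r is also a leukocyte marker. The other leukocyte markers with junctions, Itgam and Mrc1, had 2 Sham and 7 LPS reads together, and Ptprc, Cd68, Itgax, Mpo and S100a8 had none, and the part of leukocyte number in the Csf3r value was not tested. Il1r1, the signalling receptor of IL-1, went from the fill-in to 8 reads, 1.22-fold the Sham limit. With the fill-in taken as 1 read its ratio was 5.81 (0.78–258), not beyond counting error. Il15ra, which presents IL-15, had 5 and 11 reads (ratio 1.60, 0.51–5.86), and Il6r, the binding chain of the IL-6 receptor, 4 and 6 (ratio 1.09, 0.26–5.25). Neither of these differed beyond counting error. The single sensor with a junction, the mitochondrial NOD-like protein Nlrx1, had 2 Sham reads and lay at the LPS fill-in, both within the limit of the fill-in.

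The adaptors and kinases next to the receptors held more LPS reads than any other immune role. Their 7 genes had 26 reads in Sham and 130 in LPS, 682 CPM (466–999) in Sham and 2476 CPM (2086–2939) in LPS, a ratio of 3.63 (2.37–5.76). Of the 7, 3 were at least 2-fold higher, 4 were within 2-fold and none was lower. On the scale of shared circRNAs 6 were higher, and on that of circRNAs with at least 50 reads 3, beside 906 and 707 of all 2502 host genes.

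Tbk1, the kinase that activates the interferon factor IRF3 downstream of TLR3 and TLR4, had the most reads among the immune genes. Its only junction (chromosome 7, 63660545 to 63661541, a span of 996 bases) had 7 Sham reads, 184 CPM (89.0–379), and 37 LPS reads, 705 CPM (511–971). The value was 3.84-fold higher in LPS (1.69–10.2), and its log2 fold change of 1.86 stayed between 1.42 and 2.32 under the other scales and settings.

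Ripk2, the kinase that carries signals of NOD1 and NOD2 to NF-kB, was at the fill-in at all 3 of its junctions in Sham. In LPS it had 28 reads, 533 CPM (369–771), 2.62-fold what 3 fill-ins allow (7.75 reads). With each fill-in taken as 1 read its ratio was 6.775 (2.09–34.8). The reads lay mostly in 1 junction (chromosome 5, 29852740–29857247) with 24, and the other 2 had 2 reads each.

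Traf4, a TRAF family member that acts in epithelial and immune signalling, also went from the fill-in to 17 LPS reads, 324 CPM (202–519). This was 2.60-fold the Sham limit. With the fill-in taken as 1 read Traf4 had a ratio of 12.3 (1.93–516). Its junction (chromosome 10, 65420084–65420239) spans only 155 bases. Traf2, an adaptor of the tumour necrosis factor receptors, had 3 and 9 reads (ratio 2.18, 0.54–12.5), Traf3ip1, known from cilia as well as from binding TRAF3, 4 and 9 (ratio 1.63), and Traf3 2 and 3. The intervals of these ratios include 1, so no difference was detectable at this depth.

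Irak3, the IRAK family member that restrains signalling from Toll-like receptors, had 10 Sham reads, 262 CPM (142.5–483), and 27 LPS reads, 514 CPM (354–748). Its ratio of 1.96 (0.92–4.54) fell just short of 2-fold. Most of the change came from the junction between 64959567 and 64961215 on chromosome 7, with 8 and 22 reads. The longer junction with the same end, from 64953167, had 2 and 3 reads, and that from 64945305 to 64953231 went from the fill-in to 2.

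In the NF-kB group, Nfkb1, which encodes the p105 precursor of the p50 subunit, and Ikbkb, the catalytic IKK-beta kinase, each had 5 Sham and 13 LPS reads, 131 CPM (56.0–307) and 248 CPM (145–424). The ratio of 1.89 (0.63–6.76) was not beyond counting error for either. The 2 Nfkb1 junctions differed. That between 240854068 and 240861760 on chromosome 2 had 3 and 13 reads (ratio 3.15, 0.86–17.2), and that between 240796414 and 240811227 had 2 in Sham and none listed in LPS. A further junction of the table without a gene name (240854068–240867796) starts at the same base as the first of them and had 15 Sham and 9 LPS reads. With it, a choice made after seeing the data, Nfkb1 would have 20 and 22 reads, and its log2 fold change would go from 0.83 to -0.33, so the direction for Nfkb1 rests on how the junctions were named.

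The JAK-STAT and interferon factors had few reads, with 4 Sham and 16 LPS reads over 5 genes and a ratio of 2.90 (0.94–11.9). Jak2, the kinase on many cytokine receptors, had 6 reads in LPS alone, and the neighbouring genes Stat5b and Stat5a, which it activates, 4 and 2, likewise without a listed Sham value. Stat6, the factor of IL-4 and IL-13, was listed in Sham alone, with 2 reads, and Irf2 had 2 and 4. None of these 5 genes reached 10 reads over both libraries, so their directions rest on between 2 and 6 reads each.

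**Figure D3:**
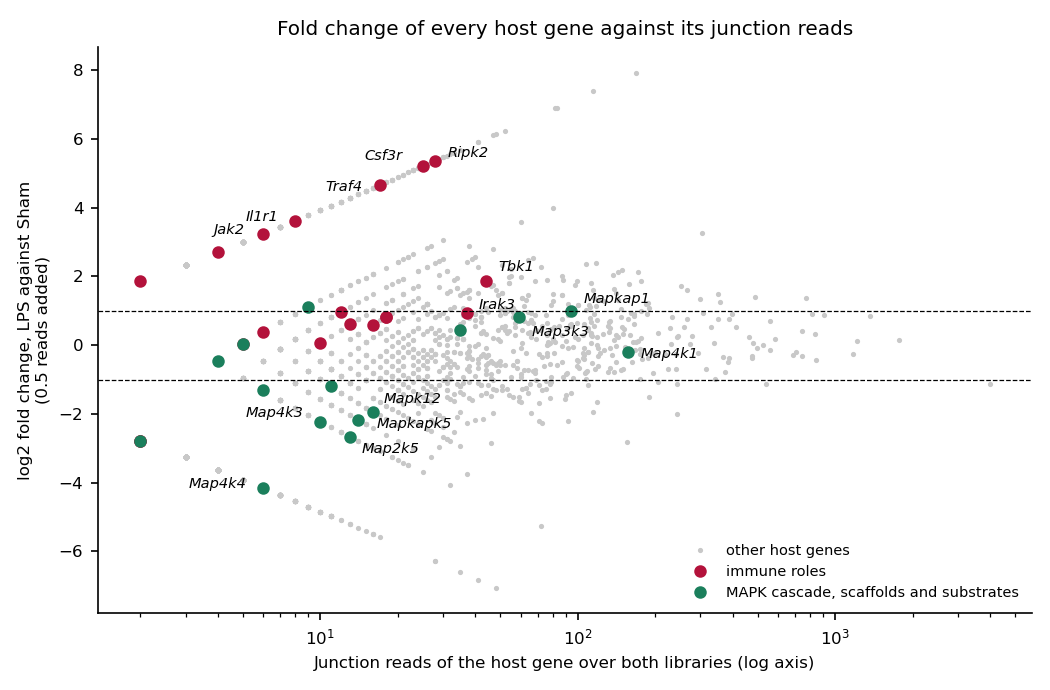
Log2 fold change of every host gene (vertical axis, LPS against Sham with 0.5 reads added) against its junction reads over both libraries (horizontal log axis), with the immune genes in red, the MAPK genes in green and other host genes in grey; dashed lines mark 2-fold. The rows of points at the upper and lower edge are genes at the fill-in in 1 library. Csf3r, Ripk2 and Traf4 lie on the upper edge with 17 to 28 reads.

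The promoters of these host genes were searched for the kappaB consensus, the motif that NF-kB dimers bind. Windows of 300 bases, 250 before and 50 after the RefSeq transcription start in GRCr8, were found for 29 of the 34 genes and read on both strands. The motif was in 8 of 29 windows (27.6%), 5 of 16 for immune and 3 of 13 for MAPK genes. Of the 2212 windows of host genes 11.4% held it, and of all 33469 windows 7.51%. The 8 genes were Nfkb1, Traf3, Irak3, Jak2, Il1r1, Map4k1, Map4k2 and Map2k1. Of the 8, Il1r1, Jak2 and Map4k2 were at least 2-fold higher in LPS, and Nfkb1, Traf3, Irak3, Map4k1 and Map2k1 were within 2-fold. Tbk1, Csf3r and Traf4, also at least 2-fold higher, had windows without the motif. Ripk2, Stat5a and Stat5b, higher as well, were not among the 8. A match is a run of letters, not a measured binding site, and this comparison was not tested. The stretch from 100 bases before to 20 after the start is printed for the 4 immune genes with a match inside it. It is given on the strand of the gene with the matches in capitals. NF-kB was taken as the factor that the LPS pathway frees, while Jak2 was placed in the JAK-STAT role. The stretches lie at chr2:226805443-226805562 (minus strand), chr6:136026949-136027068 (plus), chr7:57598612-57598731 (minus) and chr1:236408805-236408924 (plus).
Nfkb1: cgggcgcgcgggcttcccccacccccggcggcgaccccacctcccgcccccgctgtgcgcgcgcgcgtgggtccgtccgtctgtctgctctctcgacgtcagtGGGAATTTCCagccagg
Traf3: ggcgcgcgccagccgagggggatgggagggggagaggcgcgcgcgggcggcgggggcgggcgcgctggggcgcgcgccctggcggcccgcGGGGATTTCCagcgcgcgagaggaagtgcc
Irak3: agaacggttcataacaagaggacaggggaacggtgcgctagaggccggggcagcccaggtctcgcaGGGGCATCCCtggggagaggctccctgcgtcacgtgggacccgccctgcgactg
Jak2: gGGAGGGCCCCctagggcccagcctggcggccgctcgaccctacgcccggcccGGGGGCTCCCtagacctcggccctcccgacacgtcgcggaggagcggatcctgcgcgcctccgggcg

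The match of Nfkb1 begins 4 bases into the transcript, that of Traf3 10 bases before the start, that of Irak3 34 before, and those of Jak2 99 and 47 before. The circRNA of these 4 genes did not move as 1 group. Irak3 and Nfkb1 were within 2-fold, Jak2 was seen only in LPS with 6 reads, and Traf3 had 2 and 3 reads.

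At the top of the MAPK cascade, all 5 MAP4K genes formed circRNA and most of it came from Map4k1. Map4k1, the haematopoietic progenitor kinase of T and B cell receptor signalling, was the most abundant of the 34 hosts, with 29.2% of their Sham reads and 18.3% of their LPS reads. Its main junction (chromosome 1, 87947015 to 87947368, 353 bases) had 71 reads in Sham, 1863 CPM (1477–2349), and 83 in LPS, 1581 CPM (1276–1959). On the scale of library totals the ratio of 0.85 (0.61–1.18) shows no difference beyond counting error, and its interval leaves out a 2-fold change in either direction. The interval shifts with the scale, and neither statement is made for the other 2 scales. The log2 fold change of the gene was -0.19 on the library totals, 0.27 on the scale of shared circRNAs and -0.63 on that of circRNAs with at least 50 reads. A second junction of 539 bases, at 87942271 to 87942810, went from the fill-in to 3 reads.

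The other MAP4K genes had few reads. Map4k3 had 8 Sham reads and 2 LPS reads, 5.51-fold lower in LPS (1.10–53.3). With each fill-in taken as 1 read it was 3.10-fold lower with an interval that includes 1 (0.87–13.8), and without its most-read junction its log2 fold change went from -2.23 to -0.46. Its 3 junctions did not move alike, as that between 3324175 and 3334117 on chromosome 6 had 6 reads in Sham alone, while the shorter one from 3333797 with the same end had 2 in LPS alone. Map4k4 had 6 Sham reads in 2 junctions, neither of them listed in LPS. With each fill-in taken as 1 read it was 4.13-fold lower with an interval that includes 1 (0.74–41.9). Map4k5 had 4 and 2 reads and Map4k2 2 and 7, and the intervals of their ratios include 1. In sum the MAP4K genes had 2388 CPM (1945–2930) in Sham and 1847 CPM (1515–2253) in LPS, a ratio of 0.77 (0.58–1.04).

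Map3k3, or MEKK3, a kinase that links receptor signals to NF-kB and to ERK5, had junctions that went in opposite directions. In sum it had 17 Sham reads, 446 CPM (278–714), and 42 LPS reads, 800 CPM (592–1081), a ratio of 1.79 (0.9992–3.36). Among its 6 junctions on chromosome 10, that from 94307816 to 94314584 was at the fill-in in Sham and had 20 LPS reads. Its LPS value was 381 CPM (247–588), 3.06-fold the Sham limit. The longest one, from 94292693 to the same end, had 9 Sham and 3 LPS reads and was 4.13-fold lower in LPS (1.03–23.7). Another, from 94307816 to 94320863, had 8 reads in each library. The 3 remaining junctions, which start at 94292693 or 94294327, had between 3 and 5 reads in LPS alone, and their host lists also name small RNA families. Without the junction of 20 reads the log2 fold change of Map3k3 went from 0.82 to -0.10. Map3k5 (ASK1), a stress-responsive kinase, had 2 and 3 reads.

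**Figure D4:**
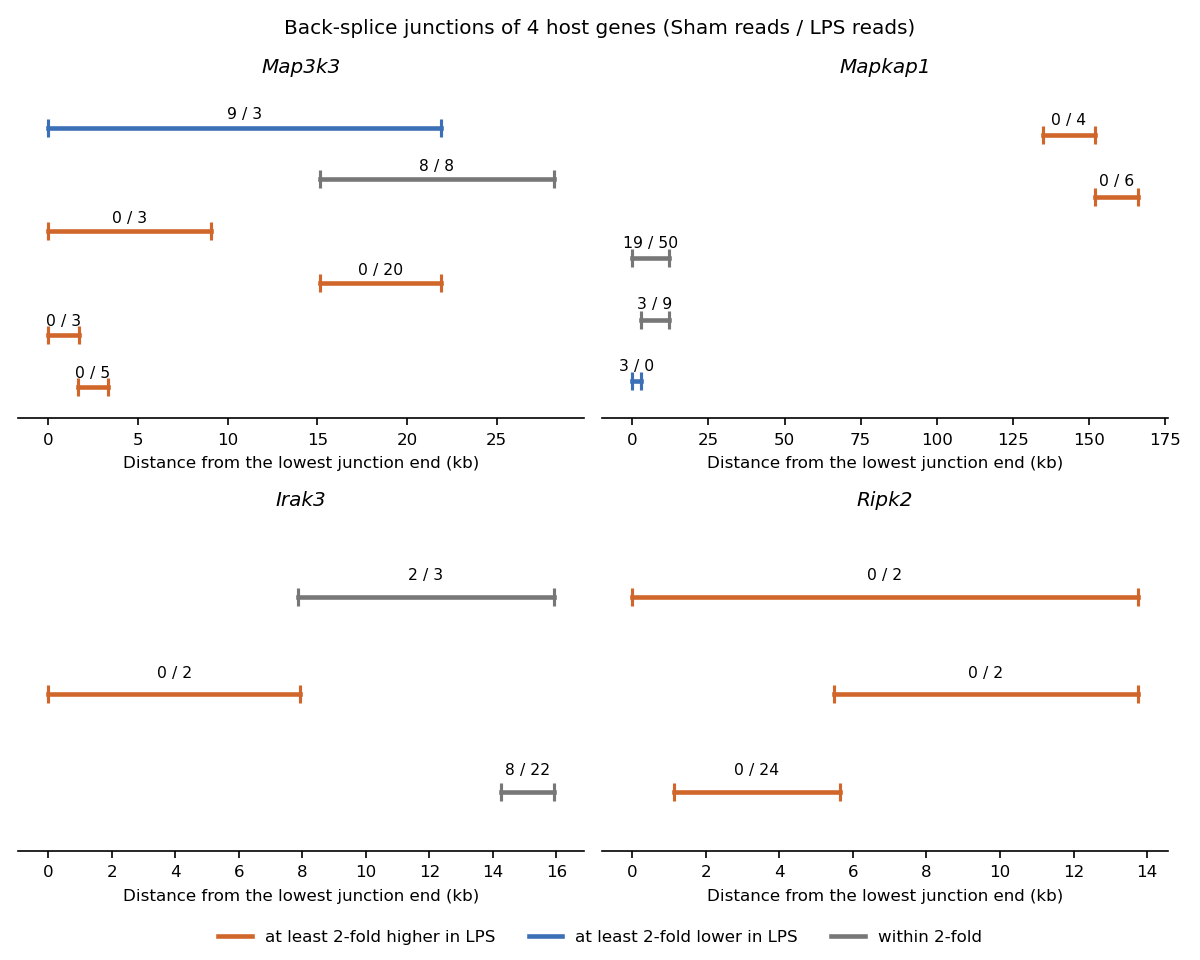
Back-splice junctions of Map3k3, Mapkap1, Irak3 and Ripk2, each drawn as a line from its lower to its upper end (horizontal axis, distance from the lowest junction end of the gene in kb), with Sham reads / LPS reads above it; orange lines were at least 2-fold higher in LPS, blue lines at least 2-fold lower and grey lines in between. In Map3k3 the junction of 0 / 20 reads shares its end with that of 9 / 3 reads and its start with that of 8 / 8 reads.

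The lower tiers of the cascade were at similar or lower values in LPS. Map2k1 (MEK1), the kinase of ERK1 and ERK2, had 12 Sham and 23 LPS reads over 3 junctions, 315 CPM (180–550) and 438 CPM (292–657), a ratio of 1.39 (0.66–3.07). Map2k5, the kinase of ERK5, had 11 and 2 reads, 289 CPM (161–517) and 38.1 CPM (10.4–139), and was 7.58-fold lower in LPS (1.65–70.3), or 5.05-fold (1.33–28.2) with its fill-in taken as 1 read. Both of its junctions on chromosome 8 were lower, that from 68228582 to 68245776 with 7 and 2 reads and that from 68179736 to 68203428 with 4 and the fill-in. Map2k4, which activates JNK and p38, had 2 reads in each library, at different junctions.

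The MAPK enzymes themselves were hosts in 2 of 13 genes, both of the p38 group. Mapk12 (p38 gamma) had 12 Sham reads, 315 CPM (180–550), and 4 LPS reads, 76.2 CPM (29.6–196), at 1 junction (chromosome 7, 130113212–130116591), and was 4.13-fold lower in LPS (1.25–17.6). Mapk14 (p38 alpha), the main stress-activated p38 kinase, had 7 and 4 reads (2.41-fold lower, 0.61–11.2). At 1 of its junctions it had 3 and 4 reads, and at the other 4 and the fill-in. On the scale of shared circRNAs Mapk14 was within 2-fold (log2 fold change -0.74), and Mapk12 was not (-1.47).

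Genes whose symbols begin with Mapk but which are not MAPK enzymes went both ways. Mapkap1, or SIN1, a subunit of the mTORC2 kinase complex that was named for its binding to stress kinases, was the second most abundant host. It had 25 Sham reads, 656 CPM (444–968), and 69 LPS reads, 1314 CPM (1039–1663), a ratio of 2.00 (1.25–3.31). With 0.5 reads added its log2 fold change of 0.98 lay just under the 2-fold line, and it was 1.45 on the scale of shared circRNAs and 0.54 on that of circRNAs with at least 50 reads. Its junctions on chromosome 3 lie in 2 clusters. In the first, the main junction (13510410–13522529) had 19 and 50 reads (ratio 1.91, 1.11–3.43), that from 13513288 to the same end 3 and 9, and that from 13510410 to 13513377 had 3 in Sham alone. In the second, 2 junctions had 4 and 6 reads in LPS alone. Mapkapk5 (PRAK), a kinase downstream of p38 and of atypical MAPKs, had 11 and 3 reads, 289 CPM (161–517) and 57.1 CPM (19.4–168), and was 5.05-fold lower in LPS (1.33–28.2). With each fill-in taken as 1 read it was 3.03-fold lower (0.97–11.1), not beyond counting error. Its most-read junction had 7 and 3 reads, with an interval that includes 1, and the other 2 had 2 Sham reads each, within what an LPS fill-in allows. Mapk8ip3 (JIP3), a JNK scaffold, had 2 Sham reads.

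The junctions of the 34 genes resembled those of the table in span and in how often both libraries held them. The median span was 3892 bases (141–23892), against 4393 for all junctions, and 9 of 61, or 14.8% (7.96–25.7), spanned at most 500 bases, against 12.5%. Both libraries held reads for 26 of the 61 (42.6%, against 37.1%), 14 were listed in Sham only and 21 in LPS only. By junction, 24 were at least 2-fold higher and 19 lower, beside 35.7% and 43.3% of all junctions. Of the 34 genes 15 had more than 1 junction. In 8 of these 15 at least 1 pair shared a start or an end, and in 4 genes (Irak3, Map3k3, Mapkap1 and Ripk2) 5 pairs that were not nested overlapped by under 200 bases (64 in Irak3, 92 in Map3k3, 89 and 140 in Mapkap1, 157 in Ripk2). In 5 of the 15, or 33.3%, junctions were at least 2-fold apart in opposite directions (Map2k4, Map3k3, Map4k3, Mapkap1 and Nfkb1), against 46.1% of the 922 host genes of the table with more than 1 junction. Counting only junctions listed in both libraries or beyond what a fill-in allows left Map3k3 alone of the 15, against 132 of those 922 host genes.

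Genes of the same pathways with other names were followed as a list of 70, of which 16 were hosts. The 2-fold rule gave 7 as higher and 5 as lower in LPS, beside the 31.1% and 38.0% of all host genes, and the median log2 fold change was -0.45. Their sum of 277 Sham and 522 LPS reads rested on Taok1, and without it they had 194 and 249 reads (ratio 0.93, 0.77–1.13). Myd88, Ticam1, Cd14, Ly96, Rela, Chuk and Ccl2 had no junction. Relb, the subunit of noncanonical NF-kB, had 2 Sham and 28 LPS reads, 52.5 CPM (14.4–191) and 533 CPM (369–771), a ratio of 10.2 (2.56–88.0). Of the linear ubiquitin ligase complex that feeds the IKK complex, Rbck1 went from the fill-in to 10 LPS reads. Its value of 190.5 CPM (103.5–351) has a lower end under the Sham limit of 124.5 CPM. Rnf31 went to 4, within what a Sham fill-in allows. Tank, which binds TRAF proteins and TBK1, had 9 and 2 reads, 6.20-fold lower (1.28–59.0). Among related kinases, Taok1 had 83 and 273 reads (ratio 2.39, 1.86–3.09) and Stk3 28 and 80 (ratio 2.07, 1.33–3.31). Stk4 had 51 and 37 reads (ratio 0.53, 0.34–0.82). Braf went from the fill-in to 9 reads, 171 CPM (90.2–326), with a lower end under the Sham limit. Mef2a, a transcription factor that p38 phosphorylates, had 72 and 62 reads (ratio 0.63, 0.44–0.89). Taok2, Socs7 and Mef2c had 6, 4 and 4 reads in Sham alone. The lower ends of their Sham intervals, 72.2, 40.8 and 40.8 CPM, lie under the LPS limit of 90.4 CPM, so none was beyond counting error.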

How the data were processed

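CircRNA sequencing of 1 Sham and 1 LPS lung library was analysed. The authors deposited CPM values (headed TPM in the file) for 4734 junctions. The submitters' processing notes name CASAVA 1.8, BWA and the rn6 build, which was taken as the build of the coordinates, and relative expression was computed by Cufflinks 2.0.2 according to the methods. The circRNA caller is not given in the sources used here. For the libraries, ribosomal RNA depletion, RNase R and strand marking are given in the labels, whereas a SmartPCR cDNA kit is given in the methods.

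Values were divided by the size of 1 read in each column (largest deviation from a whole read 5.4e-05 reads) and summed per host gene, with the fill-in as 0 reads. Small RNA names, given beside the gene for 4 of the 61 junctions, were not counted as hosts. Span is the difference of the junction ends. No count test was used, because the values are CPM and each group has 1 library, so the false discovery rate of the methods could not be applied and a fold change of 2 alone was the threshold. The members, their roles and the lists were chosen with earlier results of these data known. Described one by one by rule were genes with at least 20 reads, among genes of at least 10 reads the 5 most increased and the 5 most decreased, every Tlr, Irak, Tab, Ikbk, Nfk, Tbk1 and Ripk host and hosts with at least 4 junctions. These were 16 genes, and the others were added after their values were seen, as was the promoter motif. Alternatives were the pseudocount, the fill-in, 2 scales, single host names, 4-fold, at least 10 reads, and junctions in place of genes. Steps were tested on simulated data. Intervals came from scipy 1.17.1 and plots from matplotlib 3.10.9, with pandas 2.3.3 and numpy 2.4.6 under Python 3.11.15.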

Additional observations from a re-analysis of the deposited data

How the results depend on the processing

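No paired analysis was possible because Sham and LPS are 1 library each, and leaving out a replicate was impossible for the same reason. The count of the 34 host genes at least 2-fold higher in LPS, 9, was 17 on the scale of shared circRNAs, 4 among genes of 10 reads or more and 24 by junction, and the count of lower genes, 10, was 5 with at least 10 reads and 19 by junction. Fewer genes enter with a read minimum, and more units are counted by junction, by construction. Of all 2502 host genes, 777 were higher on the library totals and 906 on the scale of shared circRNAs. Under the other alternatives the counts stayed between 6 and 11 and between 7 and 10. The log2 ratio of the summed values, 0.49, was 0.95 on the scale of shared circRNAs and 0.0479 on that of circRNAs with at least 50 reads, the shift each scale makes. On these scales that of the MAPK genes, -0.09, was 0.38 and -0.53, while that of the immune genes, 1.66, stayed between 1.22 and 2.12. That of the other pathway genes, 0.45, was -0.10 without Taok1. Of 5 genes with junctions in opposite directions 1 was left when junctions within the fill-in limit were left out, against 132 of 425 host genes of the table. These comparisons for the roles, the junctions and the other pathway genes were chosen after seeing the data. Of the values of the 16 genes chosen by rule under the alternatives, 120 lay within the counting interval of the ratio and 4 outside it, all 4 without the most-read junction (Map3k3, Map4k1, Mapk14 and Nfkb1). Part of the 120 could not lie outside. All 16 genes had at least 10 reads, so that minimum left their values unchanged, and single host names changed Map3k3 alone. Csf3r, Ripk2 and Traf4 had intervals without an upper end. The 120 are therefore no measure of stability. Depth limits these results, as 42 of the 61 junctions had fewer than 10 reads over both libraries.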
